A study of Mus musculus with 12 samples.

Results

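Levels of 9 genes of fatty acid oxidation and its control were examined in intestinal stem cells (ISCs) of young and old mice: Acot1, Cpt1a, Acaa2, Acadm, Hadha, Ppara, Ppard, Pdk4 and Angptl4. They were chosen by name, for their place in the pathway, and make up 9 of the 54232 genes in the deposited count table. All 9 had enough reads to be tested. None of the 9 is itself an enzyme of ketone body synthesis, so a few ketone genes were read from a separate list.

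ISCs of the small intestine were profiled by 3′ RNA sequencing at 2 months (young) and 22 months (old), 1 mouse per library. In the SM6 isolation, ISCs came from wild-type C57/Bl6 mice, and the name refers to the surface markers used for sorting. In the Lgr5-GFP isolation, the mice were of the strain labelled Lgr5-EGFP-IRES-CreERT (written CreERT2 in the study's methods), in which a fluorescent reporter stands under control of Lgr5, a receptor gene of ISCs. Each of the 4 groups held 3 libraries, 12 in all, and no group carried a further treatment. The strain changes with the isolation, so these cannot be told apart. The labels give the surface marker sort for all 12 libraries, but a legend of the study describes a sort by fluorescence for the reporter strain.

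Fatty acids enter mitochondria as acyl-carnitines and are shortened by successive rounds of β-oxidation to acetyl-CoA, which liver and gut can turn into ketone bodies. The nuclear receptors PPARα and PPARδ sense fatty acids and, paired with a retinoid X receptor, switch on many of these genes. In the intestinal crypt the pathway is known to respond to fasting and to fat in the diet.

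PPAR pairs bind a direct repeat of the motif AGGTCA, with 2 copies in the same direction and 1 base between them. RefSeq promoter windows (GRCm38.p6) from 250 bases before to 50 bases after each start were searched for this repeat on both strands, with at most 2 mismatches over the 12 fixed bases. Of all 32841 windows 3.86% held it, and of all 27018 genes 4.4% had a window that did. A window was matched for 7 of the 9 genes (not for Angptl4 and Acaa2), and 0 of the 7 held the repeat. Of the 111 matched genes on all the pathway lists below, 13 held it, among them Fabp1, Cd36, Plin2, Creb3l3, Rxra, Slc25a20 and Acot4. The 250 bases before the start are shown for the 3 genes among the 9 that were called higher with age and had a window, and for 2 listed PPAR target genes that rose and held the repeat. These 2, Fabp1 and Creb3l3, were picked for both traits, and no other of the 13 was called with age. A link between the repeat and the age effects was not tested. Each sequence is written 5′ to 3′ along the gene, and capitals mark 13 bases closest to the repeat on either strand. Where stretches tie, as in Pdk4, only the first found is in capitals. Acot1 lies at chr12:84009252-84009501 on the plus strand, Cpt1a at chr19:3323051-3323300 (plus), Pdk4 at chr6:5496279-5496528 (minus), Fabp1 at chr6:71199629-71199878 (plus) and Creb3l3 at chr10:81092592-81092841 (minus). The capitals differ from the repeat at 4 bases in Acot1, Cpt1a and Pdk4, at 2 in Creb3l3 and at 1 in Fabp1.
Acot1: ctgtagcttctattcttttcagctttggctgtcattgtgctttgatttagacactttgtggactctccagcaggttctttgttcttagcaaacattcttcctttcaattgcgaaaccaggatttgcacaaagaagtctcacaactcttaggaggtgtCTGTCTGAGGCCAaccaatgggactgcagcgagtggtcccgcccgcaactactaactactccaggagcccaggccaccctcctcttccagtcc
Cpt1a: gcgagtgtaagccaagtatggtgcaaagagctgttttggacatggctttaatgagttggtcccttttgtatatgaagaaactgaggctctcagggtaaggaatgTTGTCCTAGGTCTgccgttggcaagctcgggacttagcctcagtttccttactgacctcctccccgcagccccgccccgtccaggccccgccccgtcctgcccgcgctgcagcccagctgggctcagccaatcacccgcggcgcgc
Pdk4: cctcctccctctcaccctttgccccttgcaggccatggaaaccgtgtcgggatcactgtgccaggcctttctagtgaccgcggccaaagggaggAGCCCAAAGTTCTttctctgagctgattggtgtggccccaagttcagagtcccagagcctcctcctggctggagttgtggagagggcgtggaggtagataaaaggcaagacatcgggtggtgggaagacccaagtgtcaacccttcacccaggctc
Fabp1: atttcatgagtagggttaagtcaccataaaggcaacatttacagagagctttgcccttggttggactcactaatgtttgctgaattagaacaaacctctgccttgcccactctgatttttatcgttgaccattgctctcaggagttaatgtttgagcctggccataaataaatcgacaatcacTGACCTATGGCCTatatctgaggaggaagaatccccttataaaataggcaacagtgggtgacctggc
Creb3l3: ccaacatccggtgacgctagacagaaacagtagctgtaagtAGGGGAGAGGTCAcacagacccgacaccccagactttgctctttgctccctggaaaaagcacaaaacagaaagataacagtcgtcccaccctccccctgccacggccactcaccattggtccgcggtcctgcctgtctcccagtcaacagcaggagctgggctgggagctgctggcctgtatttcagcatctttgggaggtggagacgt
In Fabp1 the match is on the opposite strand and begins 67 bases before the start, whereas in Creb3l3 it is on the gene's own strand, 209 bases before the start. The other window of Creb3l3, at chr10:81098823-81099122, did not hold the repeat (4 mismatches at best). A missing match says only that these letters are not in this window.

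The libraries held 970472 to 3815425 counts. Levels below are given in CPM, the number of counts relative to a fixed, scaled library size, and since reads come from the 3′ end of each transcript, levels are compared between libraries and not between genes. Genes were tested with edgeR's quasi-likelihood test, and a gene was called at a Benjamini-Hochberg adjusted p under 0.05, with the adjustment made over all 13368 tested genes, and this test gave each adjusted p below. With bulk libraries, fewer cells that express a gene and less RNA per cell cannot be told apart. The stem cell markers were detected in every library, with summed levels of 14388 to 17827 CPM in young SM6, 9338 to 10724 in old SM6, 14107 to 16082 in young Lgr5-GFP and 12450 to 14237 in old Lgr5-GFP. With age 3 of these 12 markers (Olfm4, Sox9 and Znrf3) were called lower in SM6 and on average by edgeR, where 2.42% and 2.66% of all genes were called. In each, 11 of 12 had a log2 fold change below 0. In Lgr5-GFP, where 0.471% of all genes were called, 0 of 12 were called and 9 of 12 had a log2 fold change below 0. One library stood apart for the genes described here: old Lgr5-GFP replicate 2 held the highest level of 6 of the 9, so the main age effects that include it are also given without it.

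Acot1, Angptl4 and Cpt1a rose with age in ISCs of the Lgr5-GFP isolation, and on average over both isolations. In Lgr5-GFP, 3 of the 9 genes were called, all higher in old mice, against a background of 0.471% of all genes tested in either direction, but 1 of 9 (Acot1) without old Lgr5-GFP replicate 2 or with the share of defensin counts as a covariate. Averaged over both isolations, these 3 were called, all higher, against 2.66% of all genes, and 2 (Acot1 and Cpt1a) without that library. Pdk4 was also called on average, but it was kept for testing only through the old libraries and is left out of these counts. With Pdk4 counted, DESeq2 called 4 of 9 in Lgr5-GFP and 5 on average, with Acaa2 in addition, and limma voom 2 and 3. In either isolation alone DESeq2 gave no adjusted p for Pdk4. In SM6, 0 of 9 were called by edgeR, with 1 (Pdk4) at an unadjusted p under 0.05 and 0 by DESeq2 or limma voom, where 2.42% of all genes were called. Their log2 fold changes had medians of 0.23 (SM6), 0.92 (Lgr5-GFP) and 0.57 (average), beside -0.01, -0.03 and -0.03 over all genes tested. Without that library the medians were 0.68 in Lgr5-GFP and 0.42 for the average. Libraries of the age groups did not overlap for 5 of the 8 genes other than Pdk4 in Lgr5-GFP (Acot1, Angptl4, Cpt1a, Acaa2 and Hadha, all higher in old), where 14.6% of all genes did not overlap in either direction. In SM6 this held for 1 of the 8 (Cpt1a, higher in old), where the background was 17.5%. The share of mitochondrial counts was 4.02%, 5.34% and 6.29% in young and 8.12%, 7.37% and 9.33% in old Lgr5-GFP, without overlap, beside 6.39% to 7.01% in young and 5.77% to 6.85% in old SM6. Defensin genes took 5.57% to 23.2% of counts in young and 2.27% to 3.86% in old Lgr5-GFP, and 1.26% to 8.24% and 4.98% to 23.1% in SM6. The part of the mitochondrial share in the age effects was not tested. The plot of each gene by library shows the wide spread of the old groups for most of these genes.

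**Figure D1:**
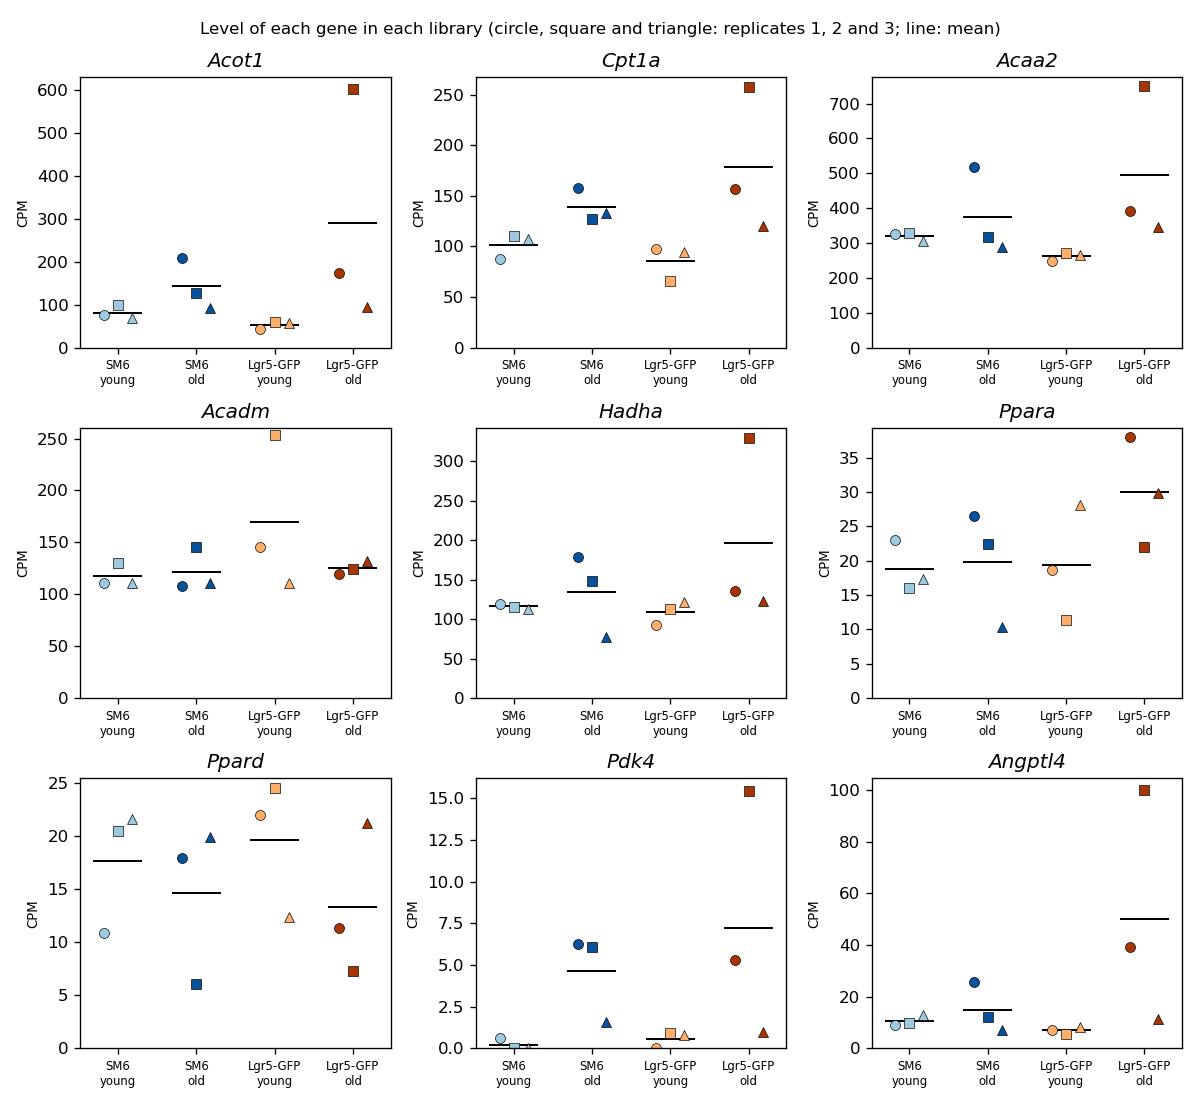
Level of each of the 9 genes in CPM (vertical axis, starting at 0) in the 12 libraries of the 4 groups, with circle, square and triangle for replicates 1, 2 and 3 and a line at the mean of each group. The square of the old Lgr5-GFP group is the highest point for 6 genes, among them Acot1 at 601 CPM, whereas Acadm and Ppard reached their highest level in a young Lgr5-GFP library.

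Acot1 encodes a cytosolic acyl-CoA thioesterase, which splits acyl-CoA into free fatty acid and CoA and is a known target of PPARα. The gene lies on chromosome 12 from 84009490 to 84018371 on the plus strand (GRCm38). In young SM6 its level was 75.8, 99.8 and 67.9 CPM in replicates 1 to 3, and in old SM6 it was 208, 128 and 91.9 CPM. In young Lgr5-GFP it was 43.5, 58.6 and 57.5 CPM, and in old Lgr5-GFP 175, 601 and 94.5 CPM. Every old Lgr5-GFP library lay above every young one, and in SM6 the lowest old library overlapped the young range. The group means were 81.2 ± 16.6 CPM in young SM6, 143 ± 59.5 in old SM6, 53.2 ± 8.44 in young Lgr5-GFP and 290 ± 272 in old Lgr5-GFP (SD, n = 3 each). The log2 fold change was 2.46 ± 0.42 (SE) in Lgr5-GFP, a 5.52-fold increase (edgeR, Benjamini-Hochberg adjusted p = 0.00682), and 1.63 ± 0.29 on average (adjusted p = 0.00210 by the same test). In SM6 it was 0.81 ± 0.41 and did not pass the test (edgeR adjusted p = 0.420), and it was 0.45 without old SM6 replicate 1. Without old Lgr5-GFP replicate 2 the Lgr5-GFP value was 1.37 and still called (edgeR adjusted p = 0.0226), and the average was 1.09 (edgeR adjusted p = 0.00102). With a fit that lets genes of unusual spread keep more of their own spread (robust quasi-likelihood), the call was lost in Lgr5-GFP (adjusted p = 0.250, edgeR) and on average (adjusted p = 0.141, edgeR).

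The spread of Acot1 between mice was wide in both old groups. Its coefficient of variation was 93.9% in old Lgr5-GFP and 41.8% in old SM6, beside 15.9% in young Lgr5-GFP and 20.4% in young SM6 (n = 3 each). That Acot1 varied between replicates was known when the genes were chosen, so these values are a description.

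Acot2, a mitochondrial thioesterase whose gene lies on the same strand of chromosome 12 (83987861 to 83993873), differed from Acot1 in its values. It stood at 64.3, 88.7 and 75.2 CPM in young SM6 and at 52.2, 45.5 and 27.2 in old SM6, so the SM6 groups did not overlap and the old one was the lower. In young Lgr5-GFP it was 35.3, 51.0 and 53.0 CPM, and in old Lgr5-GFP 61.3, 290 and 36.6. Neither change was called, with log2 fold changes of -0.87 ± 0.46 in SM6 (edgeR adjusted p = 0.446) and 1.5 ± 0.44 in Lgr5-GFP (edgeR adjusted p = 0.163). The Lgr5-GFP value of Acot2 was 0.12 without old replicate 2. Acot1 took 47.5% to 55.2% of the counts of the pair in the 6 young libraries and 67.4% to 79.9% in the 6 old ones, with no overlap between the ages in either isolation. The closest pair of libraries was young Lgr5-GFP replicate 1 at 55.2% (Wilson 95% interval 49.0 to 61.2%) and old Lgr5-GFP replicate 2 at 67.4% (64.6 to 70.1%), and these intervals cover counting error only. This share was computed after the values were seen and was not tested. The pair is close in sequence, with 85.5% identity over the longest open reading frame and 39.3% after it. Of all 72-base stretches of the Acot1 transcript, 27.0% also occurred in another gene of the family, but none in the last 500 bases, near which 3′ reads fall. How the authors' counting treated shared reads was not stated.

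**Figure D2:**
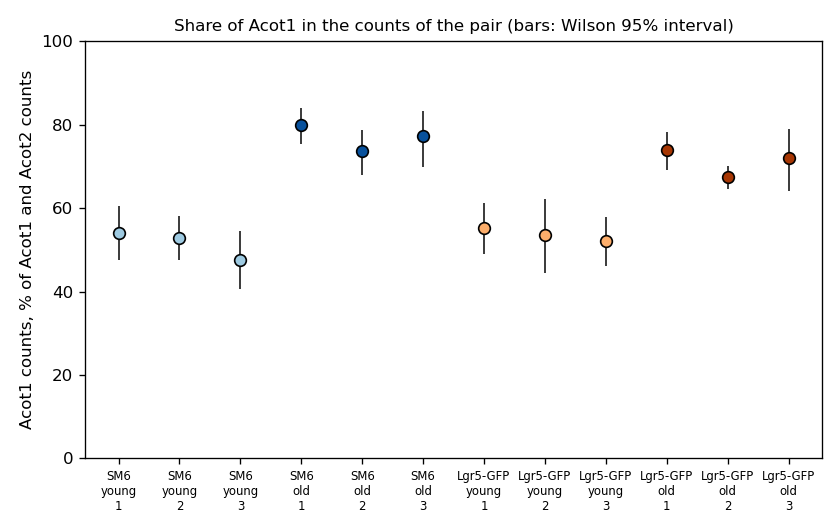
Share of Acot1 in the summed counts of Acot1 and Acot2 (vertical axis, percent) in each of the 12 libraries, with Wilson 95% intervals for counting error. The 6 young libraries lie between 47.5% and 55.2%, and the 6 old libraries between 67.4% and 79.9%.

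Cpt1a encodes carnitine palmitoyltransferase 1A, which makes acyl-carnitines at the outer mitochondrial membrane and is the rate-controlling step of β-oxidation. The gene lies on chromosome 19 from 3322334 to 3385733 on the plus strand. Its level was 87.4, 110 and 107 CPM in young SM6 and 157, 127 and 133 CPM in old SM6. In Lgr5-GFP it was 97.3, 66.2 and 94.4 CPM in the young and 157, 258 and 121 CPM in the old group. Old libraries lay above young ones in both isolations, with no overlap. The average log2 fold change was 0.74 ± 0.16, a 1.67-fold increase (edgeR adjusted p = 0.00753), and this call held in all 12 fits that left out 1 library. In Lgr5-GFP alone it was 1.04 ± 0.22 (edgeR adjusted p = 0.0326), and in SM6 0.45 ± 0.22 (edgeR adjusted p = 0.395). With the defensin share as a covariate the Lgr5-GFP value was 0.98 and not called (edgeR adjusted p = 0.146). When old Lgr5-GFP replicate 2 was left out, the Lgr5-GFP value was 0.68 (edgeR adjusted p = 0.177), and leaving out any of 4 other libraries of that isolation also ended the call, with values of 0.90 to 1.13.

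Of the β-oxidation enzymes inside the mitochondrion, Acaa2, Hadha and Acadm were not called by edgeR. Acaa2 encodes the thiolase of the last β-oxidation step. It stood at 327, 329 and 306 CPM in young SM6 and 519, 318 and 288 in old SM6, where the groups overlapped. In Lgr5-GFP it stood at 250, 271 and 265 CPM in the young and 391, 751 and 346 in the old group, where they did not. Its log2 fold change was 0.92 ± 0.24 in Lgr5-GFP (edgeR adjusted p = 0.0863) and 0.57 ± 0.17 on average (edgeR adjusted p = 0.0714), whereas DESeq2 called both (DESeq2 adjusted p = 0.0200 and 0.0258). The Lgr5-GFP value without old Lgr5-GFP replicate 2 was 0.50 and the average 0.36, and without old SM6 replicate 1 the SM6 value moved from 0.23 to -0.06.

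Hadha, the α subunit of the mitochondrial trifunctional protein, carries out the middle steps for long chains. Its level was 120, 116 and 113 CPM in young SM6 and 179, 148 and 77.5 in old SM6. In Lgr5-GFP it was 92.0, 112 and 121 CPM in the young and 136, 330 and 122 in the old group (lowest old library 122 CPM, highest young library 121 CPM). The log2 fold change was 0.86 ± 0.29 in Lgr5-GFP (edgeR adjusted p = 0.257), and 0.26 without old Lgr5-GFP replicate 2, when the average moved from 0.54 to 0.24. An exon of Hadha overlaps Garem2 on the opposite strand, and reads of the pair cannot be told apart where counting ignored strand, which was not stated.

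Acadm, the medium-chain acyl-CoA dehydrogenase, was not called in either isolation. It stood at 111, 130 and 111 CPM in young SM6, 108, 145 and 111 in old SM6, 145, 253 and 111 in young Lgr5-GFP and 119, 124 and 132 in old Lgr5-GFP. The groups overlapped in both isolations. The log2 fold change was 0.05 ± 0.22 in SM6 and -0.42 ± 0.22 in Lgr5-GFP (edgeR adjusted p = 0.964 and 0.567), and without young Lgr5-GFP replicate 2 the latter was -0.04.

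The receptors showed no called change. Ppara, the PPARα gene, ranged from 10.4 to 28.1 CPM in 3 of the groups, and it was 38.0, 22.0 and 29.9 CPM in old Lgr5-GFP. Its log2 fold change was 0.08 ± 0.35 in SM6 and 0.58 ± 0.33 in Lgr5-GFP (edgeR adjusted p = 0.968 and 0.611). Ppard, the PPARδ gene, was 10.9, 20.5 and 21.7 CPM in young SM6 and 17.9, 6.11 and 20.0 in old SM6. In Lgr5-GFP it was 22.1, 24.6 and 12.4 CPM in the young and 11.3, 7.32 and 21.2 in the old group. All its groups overlapped, with log2 fold changes of -0.29 ± 0.42 in SM6 and -0.57 ± 0.42 in Lgr5-GFP (edgeR adjusted p = 0.852 and 0.733). The 95% interval of the average age effect ran from -0.17 to 0.83 for Ppara and from -1.05 to 0.19 for Ppard. The Lgr5-GFP value of Ppard was -0.28 without old replicate 2.

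Pdk4 encodes a kinase that shuts off pyruvate dehydrogenase and so turns cells from glucose to fat as fuel. It was barely detected in young ISCs. The libraries held 1, 0 and 0 counts in young SM6 and 8, 9 and 2 in old SM6, and 0, 1 and 2 counts in young Lgr5-GFP and 8, 19 and 1 in old Lgr5-GFP. In CPM, old libraries lay above young ones in both isolations, although in Lgr5-GFP the lowest old library stood at 0.964 and the highest young one at 0.945 CPM, each on 1 count. Summed over libraries, the ratio of old to young was 22.9 in SM6 (1 against 19 counts, 95% counting interval 3.64 to 952) and 16.5 in Lgr5-GFP (3 against 28 counts, 5.09 to 84.7). No young library held more than 2 counts, so Pdk4 was kept for testing only through the old libraries, where it is high. Its average age effect was called (edgeR adjusted p = 0.00709), and for that reason the call is not counted as support. In either isolation alone it was not called (edgeR adjusted p = 0.102 in SM6 and 0.134 in Lgr5-GFP). The fitted log2 fold change of 3.90 ± 0.82 depends on how counts near 0 are treated and is no bound.

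Angptl4 encodes a secreted inhibitor of lipoprotein lipase and is induced by PPARs, fasting and low oxygen. The gene lies on chromosome 17 from 33773750 to 33781830 on the minus strand. Its level was 9.10, 9.98 and 13.01 CPM in young SM6 and 25.7, 12.2 and 7.19 in old SM6, which overlapped. In Lgr5-GFP it was 7.25, 5.67 and 8.28 CPM in the young and 39.3, 100 and 11.6 in the old group, with no overlap. The log2 fold change was 2.79 ± 0.51 in Lgr5-GFP, a 6.90-fold increase (edgeR adjusted p = 0.00969), and 0.50 ± 0.55 in SM6 (edgeR adjusted p = 0.787). The average of 1.64 ± 0.38 was called (edgeR adjusted p = 0.0150). Neither call held without old Lgr5-GFP replicate 2, with 1.85 in Lgr5-GFP (edgeR adjusted p = 0.0841) and 1.17 on average (edgeR adjusted p = 0.0583). The average call was also lost without old SM6 replicate 1 (1.35, edgeR adjusted p = 0.107), and in that fit the SM6 value was -0.09. With the defensin share as a covariate the Lgr5-GFP value was 2.21 and not called (edgeR adjusted p = 0.175). Limma voom and the robust fit called Angptl4 neither in Lgr5-GFP nor on average, and without young Lgr5-GFP replicate 1 its Lgr5-GFP call was lost (2.78, edgeR adjusted p = 0.0529).

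**Figure D3:**
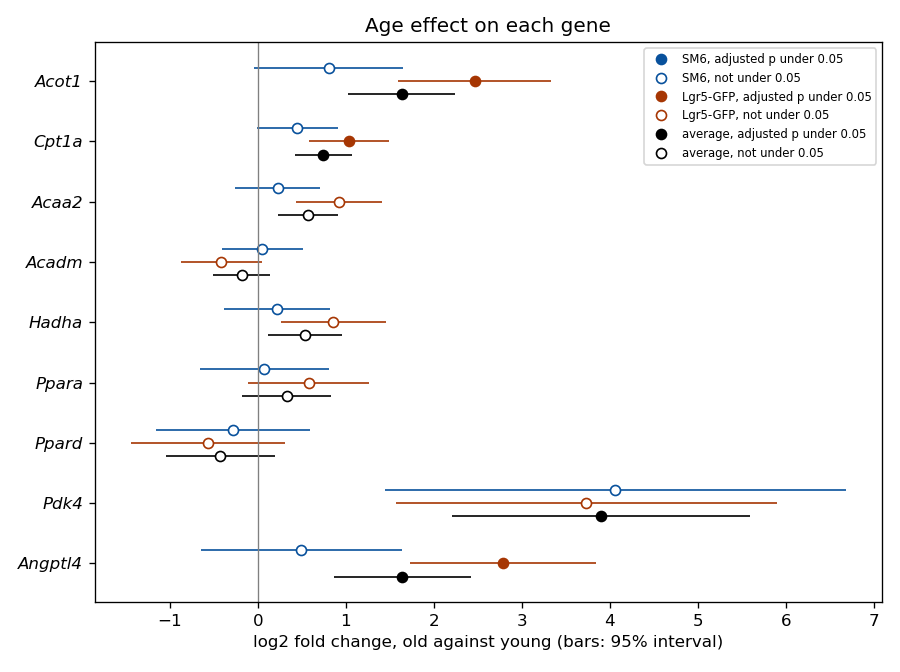
Log2 fold change of old against young (horizontal axis, 0 marks no change) for the 9 genes in SM6, in Lgr5-GFP and averaged over both, with 95% intervals and filled points where the edgeR adjusted p was under 0.05. Filled points appear for Acot1, Cpt1a and Angptl4 in Lgr5-GFP and on average, and for Pdk4 on average only. No SM6 point is filled.

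The age effects of the isolations were not shown to differ. The difference, Lgr5-GFP minus SM6, was called for 0 of 9 genes by edgeR, with 3 (Acot1, Angptl4 and Acaa2) at an unadjusted p under 0.05 and 0 called by DESeq2 or limma voom, where edgeR called 0.658% of all genes. For Pdk4, Angptl4, Ppara and Ppard DESeq2 gave no adjusted p here. It was 1.66 ± 0.58 for Acot1 (edgeR adjusted p = 0.318) and 2.29 ± 0.75 for Angptl4 (edgeR adjusted p = 0.273), and without old Lgr5-GFP replicate 2 it was 0.56 and 1.35. Comparing Lgr5-GFP with SM6 directly, 0 of 9 genes were called at 2 months by edgeR (1, Acadm, at an unadjusted p under 0.05), against 0.0898% of all genes. At 22 months 0 of 9 were called (2, Acot1 and Angptl4, at an unadjusted p under 0.05), against 0.718% of all genes. DESeq2 and limma voom also called 0 of 9 at either age. These comparisons share libraries with the age comparisons.

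Of the genes that make or use ketone bodies, Bdh1, which makes β-hydroxybutyrate, and Acat1, the mitochondrial acetoacetyl-CoA thiolase, were not called. Their average log2 fold changes were 0.01 and 0.20 (edgeR adjusted p = 0.989 and 0.489).

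Among 26 tested genes of mitochondrial fatty acid oxidation, 23 had an average log2 fold change above 0, with a median of 0.42, beside 46.8% of all tested genes above 0 and a median of -0.03. Of the 26, 3 were called, all higher, against 2.66% of all genes: Cpt1a, Acadl and Eci2. Acadl, the long-chain acyl-CoA dehydrogenase, was 0.89 ± 0.23 (edgeR adjusted p = 0.0314), and Eci2, an enoyl-CoA isomerase, 0.80 ± 0.21 (edgeR adjusted p = 0.0391). Leaving out old Lgr5-GFP replicate 2, Cpt1a alone of the list was called, Acadl and Eci2 were both at 0.49 and the median was 0.27. Hadhb, the partner subunit of Hadha, was at 0.64, Cpt2 at 0.35 and Acadvl, the very-long-chain dehydrogenase, at 1.14 on average, none of them called (edgeR adjusted p = 0.0868, 0.410 and 0.384), and at 0.40, 0.16 and 0.84 without that library. Acadvl held 2, 5 and 3 counts in young SM6 and 9, 4 and 3 in old SM6. In Lgr5-GFP it held 5, 2 and 4 counts in the young and 3, 9 and 4 in the old group. Like Pdk4, Acadvl was kept for testing only through old libraries, so its rise is no support, although the 23 and the medians include it. Of 14 tested peroxisomal genes, 0 were called on average by edgeR, DESeq2 or limma voom, with 5 at an unadjusted p under 0.05. Decr2, a peroxisomal reductase, was called lower in SM6 (-0.88 ± 0.23, edgeR adjusted p = 0.0411), whereas the average effect of Ehhadh, the peroxisomal bifunctional enzyme, was 0.62 and not called (edgeR adjusted p = 0.255), and 0.38 without old Lgr5-GFP replicate 2.

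Of 19 other tested PPAR target genes, 6 were called on average, all higher, against 2.66% of all genes, among them Mgll, Fabp1, Retsat, Fabp2 and Creb3l3. Mgll encodes monoacylglycerol lipase. It held 4, 5 and 5 counts in young SM6 and 44, 23 and 12 in old SM6, and 13, 0 and 10 counts in young Lgr5-GFP and 15, 91 and 14 in old Lgr5-GFP. It was the one gene of the lists called in both isolations, at 2.74 ± 0.73 in SM6 (edgeR adjusted p = 0.0451) and 3.27 ± 0.66 in Lgr5-GFP (edgeR adjusted p = 0.0243). Without old Lgr5-GFP replicate 2 the Lgr5-GFP value was 1.81 and was not called (edgeR adjusted p = 0.284).

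Fabp1, the liver-type fatty acid binding protein, whose window holds the repeat shown above, ranged from 400 to 517 CPM in young SM6 and from 1027 to 5563 CPM in old SM6. In Lgr5-GFP it ranged from 272 to 1023 CPM in the young and from 780 to 9851 CPM in the old group, and the groups overlapped. Its average log2 fold change was 2.62 ± 0.46 (edgeR adjusted p = 0.00173), and 1.67 without old Lgr5-GFP replicate 2 (edgeR adjusted p = 0.00184). Creb3l3, a transcription factor of fasting metabolism that holds the repeat in the window shown above but not in its other window, averaged 1.38 ± 0.36 (edgeR adjusted p = 0.0338). Without that library it was 0.76 (edgeR adjusted p = 0.209). Retsat, a retinol saturase, averaged 0.90 ± 0.19 (edgeR adjusted p = 0.00786), and Fabp2, the intestinal fatty acid binding protein, 0.73 ± 0.19 (edgeR adjusted p = 0.0286), although without that library it was 0.53 and not called (edgeR adjusted p = 0.101). Plin2, a lipid droplet coat protein, and Cd36, a fatty acid transporter, were not called on average, at -0.11 and 1.12 (edgeR adjusted p = 0.801 and 0.282).

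Among 20 tested receptors, partners and coregulators, only Crebbp, a histone acetyltransferase coactivator, was called on average. It fell by 0.59 ± 0.13 on the log2 scale (edgeR adjusted p = 0.0128). Pparg was at 0.63, Rxra at 0.21 and Ppargc1a, the coactivator PGC-1α, at -0.36 on average, none of them called (edgeR adjusted p = 0.729, 0.767 and 0.648). Of 9 tested acyl-CoA thioesterases Acot1 was the one called, of 12 tested genes of the pyruvate dehydrogenase step Pdk4 was, and of 3 tested genes of the angiopoietin-like list Angptl4 was. Of 13 tested genes of fatty acid synthesis, 0 were called on average by edgeR, with 3 at an unadjusted p under 0.05, 0 by DESeq2 and 1 by limma voom, and their median was 0.00. Over all these lists together, 143 genes were listed and 120 tested, and 13 (Pdk4 included) were called on average, 12 of them higher, with a median of 0.17, where 2.66% of all genes were called and their median was -0.03. Without old Lgr5-GFP replicate 2, without old SM6 replicate 1 and without old SM6 replicate 2 the number called was 8, 7 and 8. The 5 calls in SM6 (Fabp1, Fabp2, Mgll, Crebbp and Decr2), where 2.42% of all genes were called, were all lost without young SM6 replicate 2, without young SM6 replicate 3 or without old SM6 replicate 1. In the robust fit 5 genes were called on average, Cpt1a, Pdk4, Crebbp, Retsat and Decr1, a mitochondrial reductase.

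**Figure D4:**
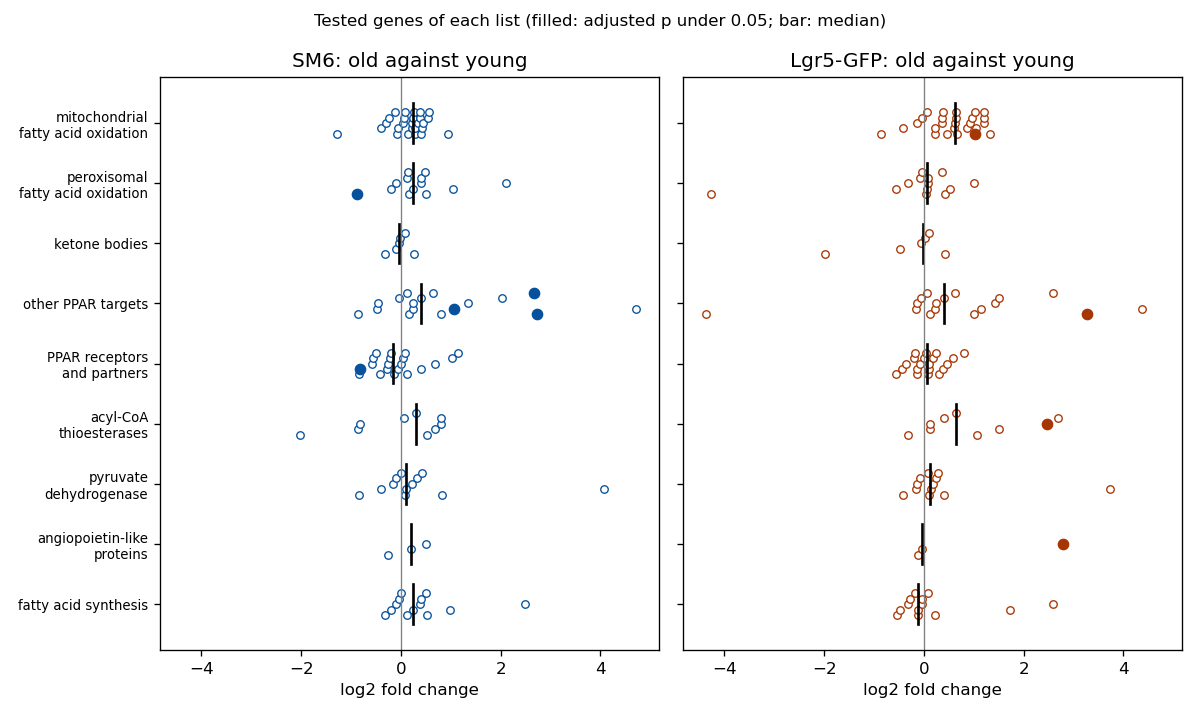
Log2 fold change of old against young (horizontal axis) for tested genes of 9 lists (a few not reported here are left out) in SM6 (left) and Lgr5-GFP (right), with filled points where the edgeR adjusted p was under 0.05 and a bar at the median of each list. The median of mitochondrial fatty acid oxidation was 0.24 in SM6 and 0.63 in Lgr5-GFP (0.39 without old Lgr5-GFP replicate 2). That of fatty acid synthesis was 0.24 in SM6 and -0.11 in Lgr5-GFP (0.008 without that library).

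Among the genes tested, those whose log2 level followed that of Acot1 most closely over the 12 libraries included Eci2, which ranked 1 of all 13368 (Pearson r = 0.98), Acaa2 (0.96), Angptl4 (0.93) and Ech1, an enoyl-CoA isomerase (0.93). These values describe 12 libraries that share their group differences and are not tests. Within groups, after each group's mean was removed, r was 0.98 for Eci2, 0.94 for Acaa2, 0.90 for Angptl4 and 0.83 for Ech1. Over the 11 libraries other than old Lgr5-GFP replicate 2, Eci2 (0.95) stayed at rank 1, and Angptl4 (0.83) came to rank 34. Among the 9 genes, old SM6 replicate 1 was the highest library of its group for 7 and old Lgr5-GFP replicate 2 for 6.

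Markers of mature enterocytes, which burn fatty acids and express Fabp1 and Fabp2 strongly, moved with age in SM6. All 14 markers on that list were detected in every library, so none of the defining markers was at 0. Their summed level was 1602 to 1810 CPM in young SM6 and 1733 to 4120 in old SM6, where 5 of 14 were called higher (Fabp2, which is also on the PPAR target list, among them). Old SM6 replicate 1, the library with the highest Acot1 of its group, was at the top of that range. In Lgr5-GFP the sum was 1603 to 2222 CPM in the young and 1338 to 2131 in the old group, and 3 of 14 were called lower (Apoa1, Apoa4 and Lct). Old Lgr5-GFP replicate 2, with 2131 CPM, lay inside the young range while its Acot1 was the highest of all libraries. Fabp2 alone gave 1251 CPM of that sum, beside 635, 543 and 732 CPM in young Lgr5-GFP. The sum is therefore not a readout apart from the PPAR targets. Of the 14 markers, 11 had a log2 fold change below 0 in Lgr5-GFP and 0 in SM6. Goblet cell markers summed to 3310 to 5063 CPM in young SM6 and 5677 to 11905 in old SM6, with 4 of 7 called higher, and to 2991 to 3699 and 1689 to 3362 CPM in Lgr5-GFP, with 0 of 7 called. Paneth cell markers summed to 10704 to 67514 CPM and 44083 to 273596 CPM in young and old SM6, with 2 of 10 called higher, and to 43130 to 245164 CPM and 18122 to 30874 CPM in Lgr5-GFP, with 2 of 10 called lower. Enteroendocrine sums were 732 to 1320 CPM and 1015 to 3125 CPM in young and old SM6 and 134 to 292 CPM and 72.3 to 159 CPM in Lgr5-GFP, with 1 of 8 (Sct) called higher in old SM6 and 0 of 8 called in Lgr5-GFP by edgeR. Tuft cell markers summed to at most 47.9 CPM, immune cell markers to at most 29.0 CPM and stromal and endothelial markers to at most 5.79 CPM in any library. The part of these cell types in the age effects was not tested.

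**Figure D5:**
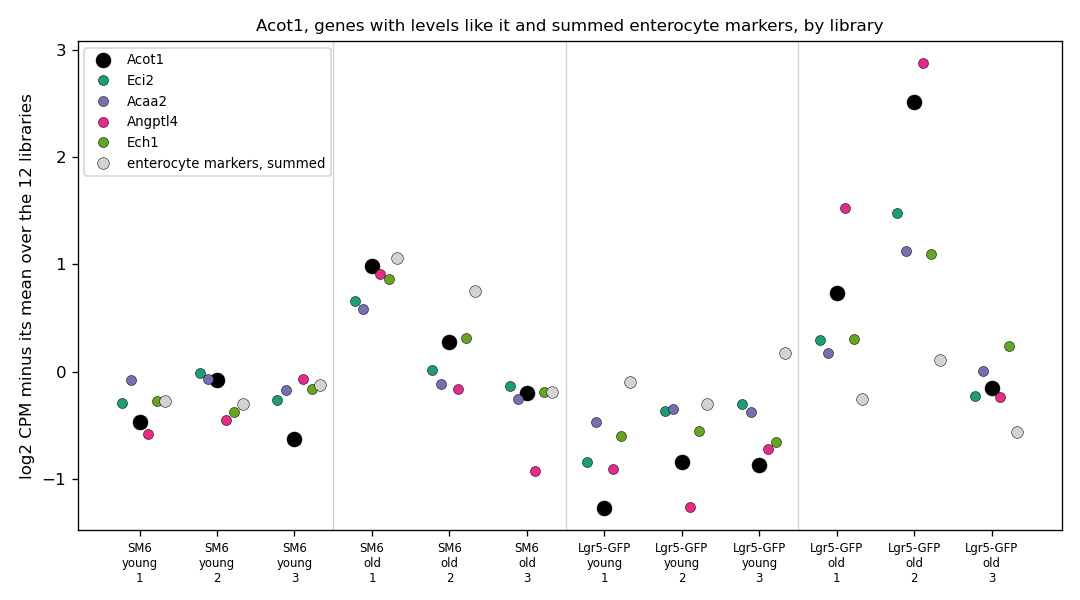
Log2 CPM of Acot1 (black), of Eci2, Acaa2, Angptl4 and Ech1 and of the summed enterocyte markers (light grey), each minus its own mean over the 12 libraries (vertical axis), by library. In old Lgr5-GFP replicate 2 these genes lie far above their mean while the enterocyte sum, 2131 CPM, does not, whereas in old SM6 replicate 1 all of them, with an enterocyte sum of 4120 CPM, lie high. Fabp2, which is also a listed PPAR target, gave 1251 CPM of the former sum and 1621 CPM of the latter.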

How the data were processed

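Per the labels and the study's methods, the authors aligned 3′ reads to GRCm38 with STAR 2.4.2a with featureCounts used to assign reads to GENCODE genes. The deposited values are the resulting counts of 12 libraries, unscaled. Whether molecular identifiers were collapsed and strand was used was not stated. Library totals of 970472 to 3815425 counts limit precision. Wilson and count-ratio intervals cover counting error only, whereas intervals of fold changes come from the model below and include the spread between mice.

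The tests were run in edgeR 4.0.16 under R 4.3.3. Genes with more than 5 reads and at least 1 CPM in at least 1 library were kept (13368 genes), library sizes were adjusted by TMM normalization, and 1 quasi-likelihood fit of the 4 groups used all 12 libraries, with two-sided tests and Benjamini-Hochberg adjustment at 0.05. Old was compared with young within each isolation and on average, the age effects were compared as an interaction, and the isolations were compared at each age. P-values measure the spread between single mice. DESeq2 1.42.0, limma 3.58.1 (voom), other scalings, filters, a robust fit, the share of defensin counts as a covariate and leaving out each library were alternatives. Log2 levels behind correlations used a prior count of 2. Plots were made in matplotlib 3.10.9 under Python 3.11.15.

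The 9 genes and all lists were chosen with earlier results of these data known. Named genes were the 9, a set of pathway genes, up to 4 called genes per list by smallest adjusted p, and the genes most correlated with Acot1. A few of these are not reported here. Ech1 was named by that last rule, and single marker genes were named after their values were seen. Positions came from GENCODE vM21, which matched 54165 of 54232 identifiers.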

Additional observations from a re-analysis of the deposited data

How the results depend on the processing

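The average age effect of Cpt1a was called in every fit that left out 1 library, and Acot1 in each of them both in Lgr5-GFP and on average. The labels do not say that the replicate numbers pair mice. Deviations of same-numbered libraries correlated between -0.044 and 0.048, but differently numbered ones were not compared, so a shared litter or day cannot be judged. With the number as a replicate block 0, 3, 4 and 0 of the 9 genes were called in SM6, Lgr5-GFP, their average and the difference, as without it. The block changed no call among the 9 or the pathway genes. Groups of 3 mice limit what can be called, and Pdk4 rests on few counts. For calls that changed, the cause was not tested unless libraries were left out or more genes tested.

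Leaving out 1 library at a time, 1 to 4 of the 9 genes were called in Lgr5-GFP, 3 to 6 on average, 0 to 1 for the difference and 0 to 1 between isolations at 22 months. Among the pathway genes 0 to 7 were called in SM6, 1 to 11 in Lgr5-GFP, 7 to 19 on average and 0 to 2 for the difference. With no filter beyond 1 count, 2 of the 9 were called in SM6, 6 in Lgr5-GFP, 2 for the difference and 2 at 22 months, and 12, 18, 22 and 4 pathway genes in SM6, Lgr5-GFP, their average and the difference. The robust fit called 1 of the 9 in Lgr5-GFP and 2 on average, and 2, 1 and 5 pathway genes in SM6, Lgr5-GFP and their average. With the defensin share as a covariate, 1 of the 9 was called in SM6 (Pdk4), 1 in Lgr5-GFP (Acot1) and 1 pathway gene in Lgr5-GFP. With library totals alone, which moved the median of all genes to -0.16 in SM6 and 0.16 in Lgr5-GFP, 1 of the 9 was called at 22 months (Angptl4), and 13 pathway genes in Lgr5-GFP and 1 for the difference. DESeq2 called 2 pathway genes in SM6 and 8 in Lgr5-GFP, and limma voom 3 in Lgr5-GFP. Over all genes, the number called moved from 323 to between 145 and 404 in SM6, from 63 to between 26 and 113 in Lgr5-GFP, from 355 to between 228 and 471 on average and from 88 to between 41 and 98 for the difference when 1 library was left out. It was 603, 274, 590 and 224 with no filter beyond 1 count, 97 in Lgr5-GFP with library totals alone, and 50 and 46 for the difference in the robust fit and with the defensin covariate. Between isolations at 2 months it went from 12 to 6 to 39 without 1 library, to 22 by DESeq2 and by limma voom, to 25 with library totals alone, to 24 with the defensin covariate and to 125 with no filter, and at 22 months from 96 to between 40 and 120 without 1 library and to 228 with no filter.

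Signs turned only for effects that were not called. Over the fits that left out 1 library, the SM6 effect ran from -0.062 to 0.39 for Acaa2, -0.10 to 0.15 for Acadm, -0.018 to 0.50 for Hadha, -0.16 to 0.38 for Ppara, -0.57 to 0.10 for Ppard and -0.092 to 0.83 for Angptl4. The average effect of Acadm ran from -0.30 to 0.0074, and the difference from -0.74 to 0.0062 for Ppard and -2.19 to 0.39 for Pdk4. With library totals alone, SM6 effects were -0.093 for Acadm and -0.044 for Ppara, and the difference was 0.12 for Ppard. With the defensin share as a covariate the difference was -0.0084 for Hadha, -0.10 for Ppara and 0.36 for Ppard.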
